A study of Mus musculus with 12 samples.

Results

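Thrombospondin-1 (Thbs1) was examined together with the family members Thbs2 and Thbs3, the thrombospondin-1 receptor Cd47, and Sirpa, which encodes the CD47 ligand SIRP alpha. These 5 genes were taken by symbol from the 41709 genes counted in each library. Thbs1 was chosen by its lower read counts in the CD18-deficient cells, so its difference between the genotypes is given as a description with no test. The genes were measured by poly(A) RNA-seq of bone marrow-derived dendritic cells (BMDCs), which were differentiated for 10 days with GM-CSF and enriched for MHCII+ cells before lysis.

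All mice were homozygous for a floxed exon 3 of Itgb2, the gene of CD18, the common chain of the β2 integrins. The control group (genotype CD18fl/fl, fl/fl Cre-) carried no Cre. The CD18-deficient group (CD18ΔCD11c, fl/fl Cre+) carried a Cre driven by the CD11c promoter, which is active in dendritic cells and also in some other myeloid cells. Cells of each genotype were left untreated or received 100 ng/mL LPS, an agonist of TLR4, for 24 h, which gave 4 groups of 3 libraries. Ages of the mice are not given in the sources used here. Nothing states that the 3 libraries of a group came from separate animals, so p-values measure the spread between these libraries, which may be technical.

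Thrombospondin-1 is a large matricellular glycoprotein that cells secrete in response to injury and inflammation. It is released from platelet granules and is also made by macrophages and dendritic cells. It binds CD47, CD36, integrins, proteoglycans and LRP1, and it can release TGF-β from its latent complex. CD47 is a widely expressed membrane protein that serves both as a receptor of thrombospondin-1 and as a ligand of SIRP alpha. SIRP alpha is an inhibitory receptor of myeloid cells, dendritic cells included, which recruits the phosphatases SHP-1 and SHP-2 and restrains the uptake of CD47-bearing cells.

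In GRCm39 coordinates of the deposited tables, Thbs1 (ENSMUSG00000040152) lies on the forward strand of chromosome 2 at 117942357 to 117957614 and has 22 exons. Sirpa (ENSMUSG00000037902) lies on the same chromosome at 129434755 to 129474148 and has 20 exons. Cd47 (ENSMUSG00000055447) spans 49620896 to 49735373 of chromosome 16 and has 28 exons over 9 annotated transcripts. Their exon lengths were 5848, 4241 and 6231 bases in that order. Every exon read of Thbs1, Cd47 and Sirpa was placed uniquely in all 12 libraries.

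The promoter of Cd47 is shown because Cd47 was higher after LPS in both genotypes, so the sequence in front of a start site is of use to a reader. The 250 bases before a Cd47 start site, from the first of 2 Cd47 entries of the RefSeq promoter table (built on GRCm38) and placed by exact match on GRCm39 at chr16:49675767-49676016 (forward strand), lie inside the span counted as Cd47. Capitals mark the only match to the NRF1 motif, searched, like the other motifs, on both strands.

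Cd47 promoter: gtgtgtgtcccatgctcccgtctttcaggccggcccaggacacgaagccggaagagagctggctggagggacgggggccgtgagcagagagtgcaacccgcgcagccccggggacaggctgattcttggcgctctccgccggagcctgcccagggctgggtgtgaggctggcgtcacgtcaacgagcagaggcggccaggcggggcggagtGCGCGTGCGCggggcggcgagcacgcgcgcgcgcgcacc

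The NRF1 match began 39 bases before the start site, and 3.74% of 32851 promoters of this length hold such a match. The GC box GGGCGG had 2 matches and was found in 32.7% of promoters. The letters of the AP-1 motif TGANTCA (in 6.75% of promoters), the CRE motif TGACGTCA (1.55%), the IRF motif (2.98%), the STAT motif TTCNNNGAA (7.02%) and the kappa B motif (7.25%) did not occur in this window. The letters TGACG, a part of the CRE motif, had 2 matches and were found in 17.8% of promoters. The table held no entry for Thbs1 or Sirpa.

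Libraries held 29689149 to 34037178 total gene reads, of which 95.1% to 96.2% were unique. Values are TMM-normalised counts scaled to library size (CPM), unless they are named as the authors' RPKM. Libraries numbered 3 stood apart from those numbered 1 and 2 in every group, so results are given with the replicate number as a block where this changes a call. The targeted gene Itgb2 was at 382, 420 and 379 CPM in the untreated control libraries and at 120, 163 and 189 CPM in the untreated CD18-deficient libraries. After LPS it was at 167, 171 and 266 CPM in control cells and at 114, 89.7 and 119 CPM in CD18-deficient cells. The groups did not overlap in either state, in the direction of the labels. Reads over all exons were counted, so transcripts without exon 3 still contribute. The dendritic cell markers summed to at least 16150 CPM in every library, with H2-Aa at 2714 CPM or more. Most of this sum came from H2-Aa, H2-Ab1, H2-Eb1 and Cd74, and the cells had been enriched for MHCII, so the sum does not identify the cells. Among the other markers, Zbtb46 was at 19.5 to 37.2 CPM, Itgax at 30.8 to 680 CPM and Flt3 at 0.23 to 35.5 CPM over all libraries. Cd209a was at 2.01 CPM or less in all LPS libraries.

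Thbs1 was at 458, 704 and 618 CPM (replicates 1 to 3) in untreated control BMDCs. In untreated CD18-deficient BMDCs it was at 94.9, 204 and 87.0 CPM. All 3 CD18-deficient libraries lay below all 3 control libraries. The group means were 593 ± 125 and 129 ± 65.5 CPM (SD, n = 3), a log2 fold change of -2.14 (SE 0.39), or 4.42-fold lower.

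After LPS, Thbs1 was at 627, 741 and 812 CPM in control cells and at 245, 278 and 214 CPM in CD18-deficient cells. These groups did not overlap either, and the log2 fold change was -1.59 (SE 0.25), or 3.02-fold lower. Same-numbered libraries differed by -2.27, -1.79 and -2.83 on the log2 scale without LPS and by -1.35, -1.41 and -1.93 with LPS. The lower level was thus seen in 3 of 3 pairs in each state. Of the genes tested, 13.1% were lower without overlap of the groups in untreated cells and 8.1% after LPS, and since this contrast chose Thbs1, nothing is read from these shares.

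**Figure D1:**
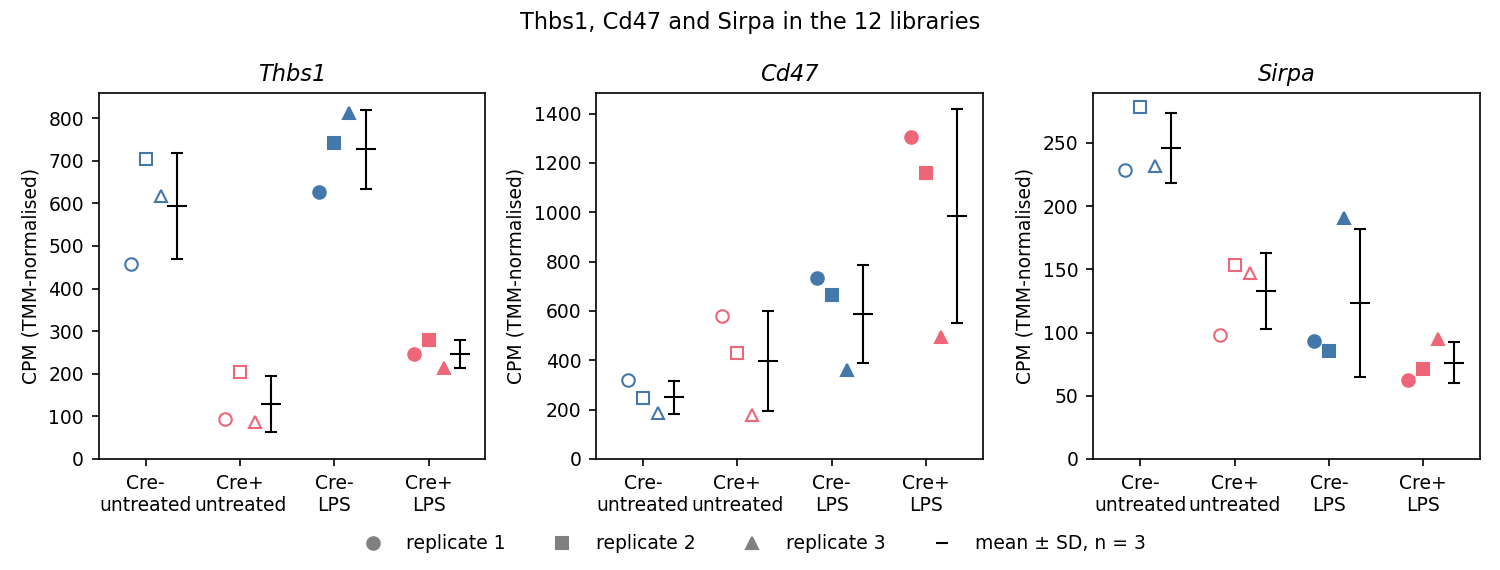
Level of Thbs1, Cd47 and Sirpa (y axes, CPM after TMM normalisation, starting at 0) in the 12 libraries by group (x axes), with open symbols for untreated and filled symbols for LPS-treated cells, blue for control (Cre-) and red for CD18-deficient (Cre+) cells, symbol shape for the replicate number, and the mean ± SD (n = 3) in black. Thbs1 in CD18-deficient cells lay at 87.0 to 278 CPM, below all control libraries (458 to 812 CPM), and Cd47 was lowest in replicate 3 of every group.

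Thbs1 was not chosen by its response to LPS, but by its low counts in CD18-deficient cells. The untreated values among these are the baseline of the LPS effect in those cells. Tests of that effect are therefore not independent of the choice, which may enlarge the rise. In control cells the 3 LPS libraries overlapped with the 3 untreated libraries, and the log2 fold change was 0.30 (SE 0.27, adjusted p = 0.537 by edgeR's quasi-likelihood test). With scaling by library size alone this value was -0.01, so no direction is given. In CD18-deficient cells all 3 LPS libraries lay above all 3 untreated libraries, although the nearest pair was only 204 against 214 CPM. The log2 fold change was 0.88 (SE 0.37, adjusted p = 0.235 by edgeR). With the replicate block it was 0.99 (SE 0.24, adjusted p = 0.0319 by edgeR), where 10.2% of all genes were called higher. With the block and library size scaling it was 0.78 (adjusted p = 0.0665 by edgeR). Since the choice used the baseline, no conclusion is drawn from the p-values of this comparison. The exact permutation test (two-sided) of log2 CPM gave p = 0.1, the smallest that 3 against 3 libraries allow. Higher levels without overlap were found for 14.8% of genes in this comparison. The interaction, which is the genotype difference after LPS minus that without LPS, was 0.64 (SE 0.46) for Thbs1 and is given without a test because it holds the contrast that chose the gene.

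Thbs1 was thus highest in the 2 control groups, lower in CD18-deficient cells with LPS and lowest in untreated CD18-deficient cells. The control groups overlapped with each other and are not ranked, because their order changed with the scaling of libraries. The other neighbours in this order did not overlap. Even after LPS, the highest CD18-deficient library, at 278 CPM, was below the lowest untreated control library, at 458 CPM.

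Spliced Thbs1 transcripts were read in all groups. Reads across exon junctions made up 47.1% to 51.2% of Thbs1 reads in untreated control cells and 42.3% to 47.3% in untreated CD18-deficient cells. Intron reads made up 2.52% to 2.77% of Thbs1 reads in the 4 libraries numbered 3 and 0.36% to 0.82% in the others. Scaled as CPM, intron reads without LPS were at 3.77, 2.53 and 17.1 CPM in control and at 0.60, 1.33 and 2.20 CPM in CD18-deficient cells. The genotypes did not overlap in this state, as for the total. With LPS they were at 3.56, 3.68 and 21.7 CPM in control and at 1.30, 1.26 and 5.37 CPM in CD18-deficient cells, where replicate 3 made the groups overlap.

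Between the genotypes, longer genes tended to be lower in CD18-deficient cells. Spearman's rho between exon length and log2 fold change was -0.33 across 12876 genes without LPS and -0.23 across 12441 genes with LPS, as a description across genes that are not independent replicates. Thbs1, with 5848 bases of exon against a median of 3454.5 bases over the genes tested, is a long transcript. With an offset for length and the replicate block, its log2 fold change was -1.99 (SE 0.22) without LPS and -1.40 (SE 0.15) with LPS.

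Cells other than dendritic cells that make Thbs1 were examined by their markers. In bulk samples, fewer cells of a type and less RNA per cell cannot be told apart. The 11 macrophage markers summed to 2009 to 2285 CPM in untreated control cells and to 1841 to 2434 CPM in untreated CD18-deficient cells, ranges that overlapped. After LPS they summed to 1170 to 1396 CPM in control and to 569 to 946 CPM in CD18-deficient cells, so these ranges did not overlap. In untreated cells 6 of the 11 markers had a lower mean in the CD18-deficient group and 5 a higher mean. Adgre1 (407 to 491 against 216 to 357 CPM) and Cd68 (246 to 309 against 93.5 to 195 CPM) were lower in CD18-deficient cells without overlap, and C1qb (364 to 404 against 548 to 767 CPM) was higher without overlap. The part of such cells in the Thbs1 difference was not tested. The 12 platelet and megakaryocyte markers, most of whose sum came from Pf4, summed to 71.6 to 138 CPM in untreated control and 62.4 to 173 CPM in untreated CD18-deficient cells. After LPS they summed to 49.0 to 70.8 CPM in control and 50.8 to 103 CPM in CD18-deficient cells. Itga2b was at 10.5 CPM or less in all libraries. Gp6 was at 0.25 CPM or less without LPS, but with LPS at 2.03 to 28.3 CPM in control and 7.41 to 64.0 CPM in CD18-deficient cells. Pf4, Ppbp, Itga2b, Clec1b and F2rl2 had lower means after LPS in both genotypes. The fibroblast marker Col1a1 and the endothelial marker Cdh5 were at 0.35 CPM or less in all libraries, but other markers of these lists were higher after LPS, with Lum at up to 26.2 CPM and Dcn at up to 11.4 CPM in control cells, and Kdr at 30.6 to 77.9 CPM in control and 16.4 to 43.9 CPM in CD18-deficient cells.

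The other thrombospondins were at or near 0. Thbs2 had 1 read in the 12 libraries together, in an LPS-treated control library. Thbs3 had 43 reads in all, with at most 16 in a library and none in 5 libraries. Neither passed the filter on low counts, so 3 of the 5 genes were tested. A count of 0 allows up to 3 reads, or 0.075 to 0.135 CPM depending on the library. The pentameric family members Thbs4 and Comp, which are best known from tendon and cartilage, had at most 63 and 19 reads in a library.

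Cd47 was at 318, 248 and 185 CPM in untreated control cells and at 734, 665 and 361 CPM after LPS. All 3 LPS libraries lay above all 3 untreated libraries, as was the case for 13.6% of genes. LPS changed Cd47 by 1.23 on the log2 scale (SE 0.36, adjusted p = 0.106 by edgeR), and with the replicate block it was 1.20 (SE 0.21, adjusted p = 0.0219 by edgeR). Among all genes, 12.8% were called in this comparison with the block and 6.33% were called higher. When 1 library was left out, the log2 fold change without the block ran from 1.04 to 1.48. The largest value came without replicate 3 of the LPS-treated control cells (adjusted p = 0.0163 by edgeR). That fit called 3268 genes, while fits without a library numbered 1 or 2 called 0.

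In CD18-deficient cells Cd47 was at 580, 431 and 179 CPM without LPS and at 1306, 1159 and 493 CPM with LPS. The groups overlapped because replicate 3 was low in both, but within each pair the level was higher with LPS. Pairs differed by 1.17, 1.43 and 1.46 on the log2 scale. Cd47 had a log2 fold change of 1.25 (SE 0.50, adjusted p = 0.206 by edgeR), and with the replicate block it was 1.30 (SE 0.18, adjusted p = 0.00457 by edgeR), where 20.2% of genes were called and 10.2% were called higher. The difference between the responses of the genotypes was 0.08 (SE 0.67, adjusted p = 1.00 by edgeR).

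Between the genotypes, Cd47 was higher in CD18-deficient cells in replicates 1 and 2 without LPS, by 0.87 and 0.80 on the log2 scale, but not in replicate 3, where the difference was -0.05. In all 3 libraries together it was 0.71 higher on the log2 scale (SE 0.44, adjusted p = 0.455 by edgeR), and it was 0.60 (SE 0.19, adjusted p = 0.0615 by edgeR) with the block. With an offset for length and the block it was 0.87 (SE 0.21, adjusted p = 0.0402 by edgeR), and with library size scaling and the block it was 0.21 (adjusted p = 0.402). After LPS, Cd47 was higher in CD18-deficient cells in 3 of 3 pairs, by 0.83, 0.80 and 0.45. Its log2 fold change was 0.72 (SE 0.44, adjusted p = 0.654 by edgeR) and, with the block, 0.67 (SE 0.14, adjusted p = 0.0288 by edgeR), where 6.98% of genes were called higher. With library size scaling and the block it was 0.42 (adjusted p = 0.0729 by edgeR). The exact permutation test over the libraries gave p = 0.5 without LPS and p = 0.3 with LPS.

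Sirpa, in contrast, was lower after LPS. It was at 228, 278 and 232 CPM in untreated control cells and at 93.6, 85.6 and 191 CPM after LPS. The groups did not overlap, as was the case in this direction for 15.9% of genes, but replicate 3 was closer to the untreated level than replicates 1 and 2. Sirpa differed by -0.99 on the log2 scale (SE 0.36, adjusted p = 0.163 by edgeR), and with the block it was -1.09 (SE 0.33, adjusted p = 0.0784 by edgeR). When 1 library was left out, the log2 fold change without the block ran from -1.46 to -0.78. The largest fall came without replicate 3 of the LPS-treated control cells (adjusted p = 0.00984 by edgeR), in the fit that called 3268 genes. Fits without a library numbered 1 or 2 called 0.

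In CD18-deficient cells Sirpa was at 98.0, 153 and 147 CPM without LPS and at 62.7, 71.3 and 94.6 CPM with LPS. The groups did not overlap, as for 13.4% of genes in this direction. Sirpa had a log2 fold change of -0.84 (SE 0.30, adjusted p = 0.166 by edgeR), and with the block the SE was 0.19 at the same log2 fold change (adjusted p = 0.0255 by edgeR), where 9.93% of genes were called lower. The exact permutation test gave p = 0.1 for Sirpa after LPS in each genotype.

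Without LPS, Sirpa was lower in CD18-deficient than in control cells, with no overlap of the groups. Its log2 fold change was -0.83 (SE 0.24, adjusted p = 0.180 by edgeR). With the replicate block it was -0.85 (SE 0.16, adjusted p = 0.0122 by edgeR), where 8.16% of genes were called lower. Groups that did not overlap in this direction were found for 13.1% of genes. After LPS, Sirpa was lower in 3 of 3 pairs, with overlapping groups. Its log2 fold change was -0.72 (SE 0.38, adjusted p = 0.600 by edgeR) and, with the block, -0.64 (SE 0.18, adjusted p = 0.0639 by edgeR), while library size scaling with the block gave -0.90 (adjusted p = 0.0213). With an offset for length and the block it was -0.49 (SE 0.17, adjusted p = 0.134 by edgeR). Without the block it ran from -0.935 to -0.268 when 1 library was left out. Markers of macrophages, which also carry SIRP alpha, had lower sums in CD18-deficient cells after LPS, as given above, and their part in the Sirpa values was not tested.

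**Figure D2:**
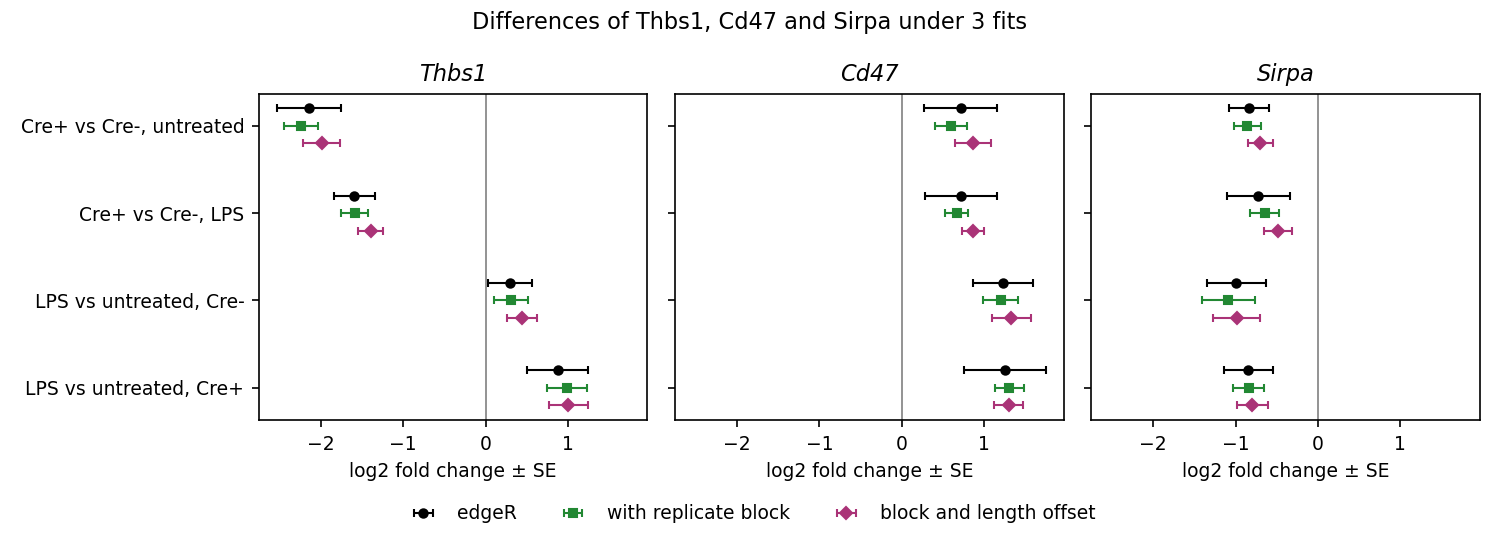
Log2 fold changes ± SE (x axes) of Thbs1, Cd47 and Sirpa in the 4 comparisons (y axis) by edgeR, by edgeR with the replicate number as a block, and with the block and an offset for gene length. The Cre+ against Cre- values of Thbs1 lay between -2.24 and -1.40 and are a description, and the block narrowed the SE of the Cd47 response to LPS in CD18-deficient cells from 0.50 to 0.18.

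Levels of different genes were compared only per length, by the authors' RPKM. In untreated control cells Thbs1 was at 124 ± 28.9 RPKM, Sirpa at 70.6 ± 9.28 RPKM and Cd47 at 47.9 ± 11.4 RPKM (SD, n = 3). In untreated CD18-deficient cells the order was Cd47 at 59.5 ± 27.8, Sirpa at 30.3 ± 7.89 and Thbs1 at 21.1 ± 10.1 RPKM. After LPS, Cd47 reached 89.0 ± 24.3 RPKM in control and 123 ± 46.7 RPKM in CD18-deficient cells, while Sirpa was at 29.0 ± 17.6 and 14.3 ± 4.96 RPKM. Thbs1 was at 122 ± 27.5 RPKM in control and 33.7 ± 1.26 RPKM in CD18-deficient cells after LPS.

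The ratio of 2 genes within a library is not changed by the scaling of libraries. It was calculated for Cd47 to Sirpa, the ligand to its receptor, after the values had been seen. The ratio of RPKM was 0.93, 0.60 and 0.54 in untreated control cells and 5.35, 5.43 and 1.29 after LPS. In CD18-deficient cells it was 3.98, 1.91 and 0.83 without LPS and 14.8, 11.5 and 3.59 with LPS. The ratio was higher after LPS in 3 of 3 pairs in each genotype, and higher in CD18-deficient cells in 3 of 3 pairs in each state. The log2 ratio differed between LPS and no LPS by 2.32 in control cells (exact permutation test, two-sided, p = 0.1, no overlap) and by 2.20 in CD18-deficient cells (exact p = 0.2). Between the genotypes it differed by 1.46 without LPS (exact p = 0.2) and by 1.34 with LPS (exact p = 0.3), in tests that do not use the pairs. Same-numbered libraries differed by 2.10, 1.68 and 0.60 without LPS and by 1.46, 1.08 and 1.48 with LPS.

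Thbs1 to Sirpa, as a description, was 1.46, 1.85 and 1.93 in untreated control cells, all above 1, and 0.71, 0.98 and 0.43 in untreated CD18-deficient cells, all below 1. After LPS, the ratios were 4.91, 6.52 and 3.13 in control and 2.98, 2.97 and 1.66 in CD18-deficient cells. Thbs1 to Cd47 was 1.57 to 3.55 in untreated control cells and 0.18 to 0.52 in untreated CD18-deficient cells.

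**Figure D3:**
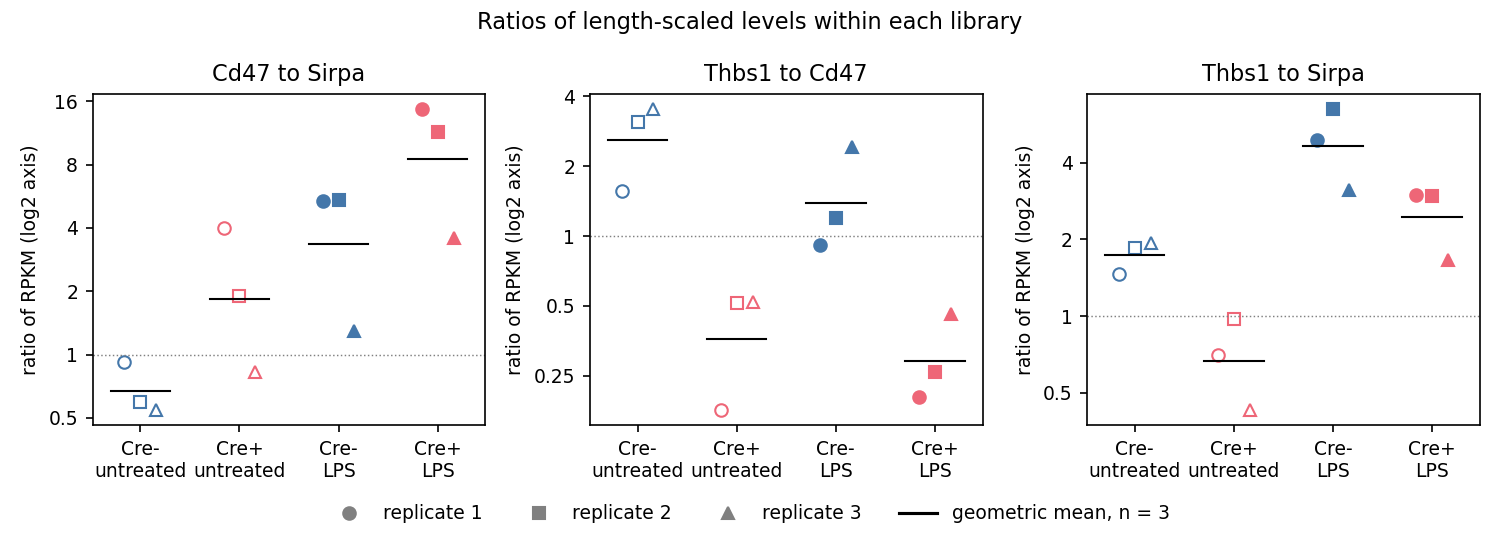
Ratios of the authors' RPKM within each library (y axes, log2 axes) for Cd47 to Sirpa, Thbs1 to Cd47 and Thbs1 to Sirpa by group (x axes), with symbol shape for the replicate number, blue for control and red for CD18-deficient cells, open symbols for untreated cells and a black line for the geometric mean (n = 3). Cd47 to Sirpa had geometric means of 0.67 in untreated control and 8.46 in LPS-treated CD18-deficient cells, and replicate 3 was the lowest of each group.

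Receptors of thrombospondin-1 were examined as a list of 15 genes, of which 14 were tested in each comparison. Between the genotypes in untreated cells none of them was past the threshold by edgeR, as was the case for all 12876 genes (0% called), of which 2159 had an unadjusted p under 0.05 and 526 were called by DESeq2. With the block, 2 receptors were called higher and 4 lower, while 20.2% of all genes were called. The median log2 fold change of the 14 receptors was -0.33 with the block, against -0.07 for all genes.

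Cd36, a scavenger receptor that binds the type 1 repeats of thrombospondin-1, was at 283 ± 86.4 CPM in untreated control and 758 ± 373 CPM in untreated CD18-deficient cells. Its log2 fold change was 1.48 (SE 0.47, adjusted p = 0.209 by edgeR) and, with the block, 1.39 (SE 0.38, adjusted p = 0.0410). Calr, the calreticulin that acts with LRP1 as a receptor complex, was the other receptor called higher, at 0.79 (SE 0.15, adjusted p = 0.0133 by edgeR with the block). Itgb3, the β chain of the vitronectin receptor, was at 24.2 ± 5.31 and 7.57 ± 2.76 CPM, a log2 fold change of -1.65 with the block (SE 0.18, adjusted p = 0.00318 by edgeR). Lrp1 was lower as well, at -1.15 with the block (SE 0.30, adjusted p = 0.0333 by edgeR), and Itga4 and Itga6 were the other receptors called lower.

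After LPS, none of the 14 receptors and none of 12441 genes was called between the genotypes by edgeR (0% called), with 1212 genes at an unadjusted p under 0.05 and 140 called by DESeq2. With the block, 10.1% of all genes were called, and 2 receptors were called higher and 3 lower. Cd36 was again higher, at 250 ± 57.8 CPM in control and 667 ± 274 CPM in CD18-deficient cells, and its log2 fold change with the block was 1.33 (SE 0.18, adjusted p = 0.00921 by edgeR). Itgb3 was again lower, with a log2 fold change of -1.52 (SE 0.35, adjusted p = 0.0391 by edgeR with the block). Cd47 was the other receptor called higher, and Itgb1 and Sdc1 were the others called lower.

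LPS raised Sdc4, a heparan sulphate proteoglycan, from 22.7 ± 6.13 to 67.8 ± 15.0 CPM in CD18-deficient cells. Its log2 fold change was 1.54 (SE 0.31, adjusted p = 0.0450 by edgeR), and it was the only one of 14 receptors called without the block, where 3.99% of all genes were called. In control cells no receptor was called without the block, where 3.89% of all genes were called by edgeR. Sdc4 was higher after LPS there too, at 30.3 ± 5.52 CPM without and 78.1 ± 26.2 CPM with LPS. Its log2 fold change in control cells was 1.37 (SE 0.31, adjusted p = 0.0604 by edgeR) and, with the block, 1.34 (SE 0.25, adjusted p = 0.0255 by edgeR). The interaction for Sdc4 was 0.21 (SE 0.42). When any 1 library numbered 1 or 2 was left out, 0 genes of the 6 lists examined here were called for LPS in either genotype, which holds for Sdc4 and for the genes of the following lists.

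Among 17 genes of the SIRP family and of signalling by CD47 and SIRP alpha, 15 were tested. The phosphatase genes Ptpn6 (SHP-1) and Ptpn11 (SHP-2) were not past the threshold in any comparison. Ptpn6 was at 172 ± 12.9 CPM in untreated control and 161 ± 22.4 CPM in untreated CD18-deficient cells, with a log2 fold change of -0.04 (SE 0.20, adjusted p = 0.942 by edgeR). No gene of the list was called without the block in any comparison. With the block, 1 gene was called higher and 5 lower between the genotypes in untreated cells, where 20.2% of all genes were called and 8.16% were called lower. Skap2, an adaptor of the SIRP alpha pathway, was the gene called higher, and the adaptor Fyb, Sirpa, Myh9, Gnai2 and Ptk2b were called lower. The activating relatives Sirpb1a, Sirpb1b and Sirpb1c share sequence with one another, so reads may be split between them, and none was past the threshold.

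**Figure D4:**
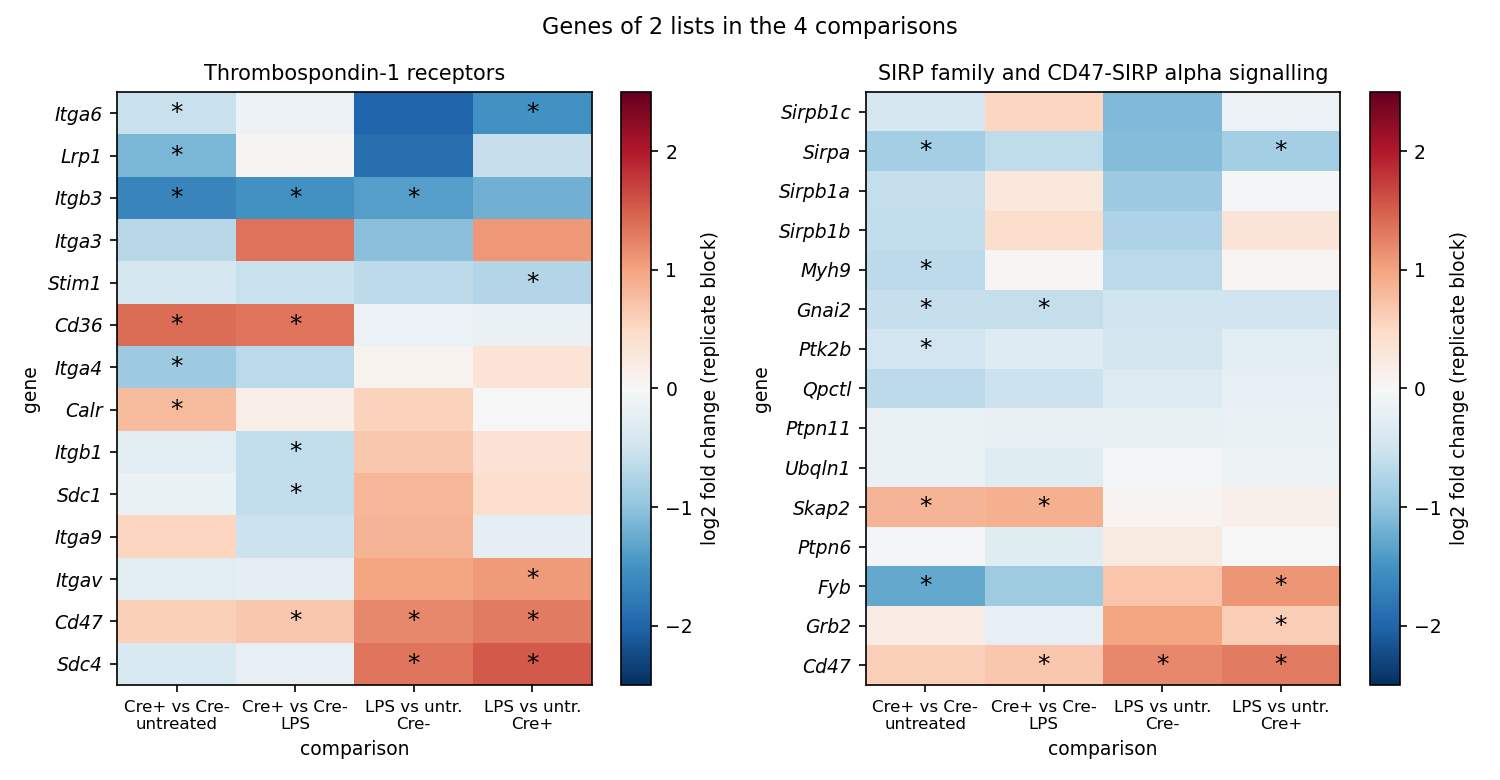
Log2 fold change by edgeR with the replicate block (colour, blue for lower and red for higher, limited to 2.5 in each direction) for the tested genes of the thrombospondin-1 receptor list and of the SIRP list (rows) in the 4 comparisons (columns), with an asterisk at adjusted p under 0.05. Cd36 and Itgb3 differed in opposite directions between the genotypes in both states, and Ptpn6 and Ptpn11 carried no asterisk.

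Uptake of apoptotic cells is a process in which thrombospondin-1 bridges the dying cell to CD36 and integrins. Of 26 genes of this process, 24 were tested for the LPS effect in control cells, and 6 were lower and none higher by edgeR, against 1.83% of all genes called lower. The complement genes C1qa and C1qb, which opsonise dying cells, fell by 3.03 (SE 0.33, adjusted p = 0.0138) and 2.62 (SE 0.28, adjusted p = 0.0138) on the log2 scale. The others were C1qc, the bridging ligand Gas6, the clearance receptor Stab1 and the integrin gene Itgb5. C1qa, C1qb and C1qc are also on the macrophage list, so the lower sum of that list after LPS, given above, includes their own fall. Other markers of that list moved in both directions with LPS in control cells. The mean of Adgre1 went from 443.8 to 608.5 CPM and that of Csf1r from 389.2 to 89.26 CPM. The part of macrophages in these values was not tested. In CD18-deficient cells 2 of 23 genes were lower and none higher, namely C1qa and Itgb5, against 1.76% of all genes called lower. The median log2 fold change of the list was -0.86 in control and -0.42 in CD18-deficient cells, against -0.02 and -0.01 for all genes. The interaction of genotype and LPS was not past the threshold for any gene of the list. Between the genotypes no gene of the list was called without the block. With the block, 5 of 23 genes were called higher and 6 lower in untreated cells, where 20.2% of all genes were called. After LPS, 2 of 24 were called higher and 1 lower with the block, where 10.1% of all genes were called.

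In the list of TGF-β activation and response, no gene was called between the genotypes without the block. With the block, 6 of 22 genes were called lower and 0 higher in untreated cells, where 8.16% of all genes were called lower. After LPS, 1 of 21 was called lower and 0 higher with the block, where 10.1% of all genes were called. The receptor genes Tgfbr1 and Tgfbr2 fell with LPS in control cells. Tgfbr1 went from 66.6 ± 13.3 to 24.2 ± 4.13 CPM (log2 fold change -1.46, SE 0.26, adjusted p = 0.0360 by edgeR) and Tgfbr2 from 40.5 ± 3.77 to 7.89 ± 4.82 CPM (-2.35, SE 0.44, adjusted p = 0.0386). The transcriptional repressor gene Tgif1 rose by 1.23 (SE 0.25, adjusted p = 0.0465 by edgeR). These were 3 of 22 genes tested, against 3.89% of all genes called. In CD18-deficient cells Tgfbr1 fell by 1.55 (SE 0.23, adjusted p = 0.0217 by edgeR), where 3.99% of all genes were called. Tgfbr2 (-1.95, SE 0.575, adjusted p = 0.11) and Tgif1 (0.933, SE 0.308, adjusted p = 0.14) differed in the same directions there, but were called by edgeR only with the block. The interaction of genotype and LPS was not past the threshold for any gene of the list.

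As a description, genes with a similar pattern over the 12 libraries were sought among 13752 genes by Pearson's r of log2 CPM. The 12 libraries share the genotype and LPS contrasts and the replicate numbers. The closest to Thbs1 were Zbtb7b (r = 0.969), Gsk3a (0.951), Wac (0.940), Frs2 (0.939) and Clec16a (0.933). Zbtb7b, at 51.2 CPM in untreated control and 34.9 CPM in untreated CD18-deficient cells, differed far less in size than Thbs1. For Cd47 the closest were Nmnat3 (0.976), Plscr1 (0.971), Tmem183a (0.971), the proteasome activator Psme1 (0.969) and Psmd10 (0.968). For Sirpa they were Mospd3 (0.970), Ap2a2 (0.968), the lysosomal membrane protein gene Laptm5 (0.964), Rab11fip5 (0.964) and Samd1 (0.963). Cd47 and Sirpa themselves had r = -0.873 with each other, and Thbs1 had r = -0.05 with Cd47 and 0.34 with Sirpa.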

How the data were processed

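The authors deposited, for each library, a table of total and unique gene read counts and of RPKM and TPM values, exported from CLC Genomics Workbench (default settings) after alignment of single-end poly(A) reads to GRCm39. The submitters' processing notes list GRCm38, but the coordinates in the tables are those of GRCm39. Strand-specific counting and the Ensembl release are not given in the sources used here. PCR duplicates were not marked by molecular identifiers. The paper's methods give overnight LPS and the labels 24 h.

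Total gene reads were used, with RPKM for levels between genes, and TPM was not used. Genes passing edgeR's low-count filter (minimum count 10) were tested with edgeR 4.0.16 in R 4.3.3 (TMM, quasi-likelihood test, Benjamini-Hochberg adjustment over all genes, threshold 0.05), with 6 libraries per comparison and all 12 for the interaction. SE was the log2 fold change divided by the square root of F. Single values were compared by exact permutation tests of log2(CPM + 0.1). DESeq2 1.42.0 was an alternative, as were other scalings, filters, a length offset and leaving out libraries. The fits were tested on simulated data. Ranges of a count near 0 cover counting error only.

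Replicate numbers come from the library titles. Deviations from group means correlated at 0.265 to 0.716 between same-numbered libraries, in all 12 pairs over 0.1, and at -0.571 to 0.334 between others, so the numbers were taken to pair the libraries. The sources used here do not say whether these shared a culture or preparation. No library was a copy of another.

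Members, lists and the rule for named genes were chosen with earlier results of these data known. Named were the 5 members, Itgb2, Thbs4, Comp, up to 3 genes per list and comparison with the smallest p, Cd36, Calr, Lrp1, Ptpn6 and Ptpn11, the 5 genes most like each tested member, and markers above 10 CPM. Other genes named from a list were chosen after their values were seen. A further gene of the TGF-β list is not reported here.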

Additional observations from a re-analysis of the deposited data

How the results depend on the processing

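Without the replicate block edgeR called 0 genes between the genotypes in either state and for the interaction, 496 for LPS in control cells and 506 for LPS in CD18-deficient cells. In that order of the 4 comparisons of 6 libraries, the replicate block gave 2606, 1262, 1627 and 2560 genes (29, 12, 20 and 26 on the 6 lists). DESeq2 gave 526, 140, 1795 and 1511 genes (5, 2, 16 and 12 on the lists) and 1 for the interaction. The length offset with block gave 1568, 897, 1750 and 2566 genes (20, 10, 22 and 24). Library size scaling with block gave 4583, 2642, 1621 and 2748 genes (43, 24, 21 and 26), with medians over all genes tested of -0.46, -0.34, -0.36 and -0.23. There 701 genes were called higher and 3882 lower between untreated genotypes, against 1555 and 1051 with TMM and block. Fitting all 12 libraries gave 19 (1 on the lists), 45, 1068 and 983 genes. Replicates 1 and 2 alone gave 1383, 523, 6140 and 2049 genes (15, 4, 50 and 18). Keeping genes with at least 1 read gave 1 for the genotypes after LPS and 805 for LPS in CD18-deficient cells. Leaving out 1 library at a time gave 0 to 1 gene for the genotypes after LPS, 0 to 3268 for LPS in control cells (0 to 26 on the lists) and 0 to 1033 for LPS in CD18-deficient cells (0 to 9 on the lists). The highest of these counts came without replicate 3 of the LPS group, and in control cells leaving out a replicate 1 or 2 of either group gave 0. In CD18-deficient cells the count was 0 without untreated replicate 1, 4 without untreated replicate 2, 26 without LPS replicate 1 and 2 without LPS replicate 2. The causes were not tested.

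The Thbs1 response to LPS in control cells reversed with library size scaling (-0.0127, with block -0.0111, and -0.01151 as a difference of mean log2 CPM). The Cd47 interaction reversed with the length offset and block (-0.00561) and with replicates 1 and 2 alone (-0.0743), and ran from -0.298 to 0.463 with 1 library left out. The Sirpa interaction ran from -0.0459 to 0.55. The genotype difference of Thbs1 ran from -2.67 to -1.92 without LPS and from -1.69 to -1.52 with LPS when 1 library was left out, and it was -2.56 and -1.87 with library size scaling. Ratios of RPKM moved by less than the spread between replicates when total gene reads, introns included, replaced exon reads, an alternative chosen after seeing the data. Depth limits Thbs2 and Thbs3 only.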

Other observations

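Matricellular and matrix proteins other than the thrombospondins were listed as 20 genes, of which 10 to 12 were tested in the comparisons of 6 libraries. Vcan, the gene of the proteoglycan versican, rose after LPS in CD18-deficient cells from 3.52 ± 0.92 to 14.3 ± 3.21 CPM (SD, n = 3), a log2 fold change of 1.98 (SE 0.37, adjusted p = 0.0383 by edgeR). It was the only gene of this list called in any comparison without the replicate block. The median log2 fold change of the list in that comparison was -0.18, against -0.01 for all genes tested. In control cells Vcan was at 7.36 ± 2.88 CPM without and 21.7 ± 8.99 CPM with LPS, a log2 fold change of 1.56 (SE 0.445, adjusted p = 0.101 by edgeR). The interaction for Vcan was 0.465 (SE 0.555).

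Markers of other cells varied between libraries. The 10 neutrophil markers summed to 157 to 1700 CPM in untreated control cells and to 108 to 441 CPM in untreated CD18-deficient cells. The 7 mast cell and basophil markers summed to 6.47 to 122 CPM and the 6 lymphocyte markers to 1.81 to 96.5 CPM over all libraries. The 8 fibroblast and stromal markers summed to 0.14 to 38.1 CPM and the 7 endothelial markers to 15.0 to 103 CPM.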
